A study of Mus musculus with 116 samples.

Results

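The MCM helicase and origin licensing genes were followed as a set of 10 genes out of the 53379 gene rows counted in each library: Mcm2, Mcm3, Mcm4, Mcm5, Mcm6, Mcm7, Mcm10, Cdc6, Cdt1 and Gmnn. They were taken by name, and their read counts without regard to strand were read in green libraries with at least 1000000 uniquely aligned reads that made up at least 60% of all reads. Of the 68 green libraries, 55 met both limits. All 10 genes passed the filter on low counts in every comparison of green libraries.

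The study asked how loss of Eed, a core subunit of the chromatin modifying complex PRC2, acts on mouse neocortical cells when the surrounding tissue has or lacks PRC2. Mosaic analysis with double markers (MADM) was used, in which Cre recombinase makes sparse green, red and yellow cells of defined genotype, and the labels give CD1 as the strain. All groups carried the MADM cassettes on chromosome 7 and Emx1-Cre, which drives recombination in progenitors of the dorsal forebrain. In control-MADM (MADM7-GT/TG;Emx1-cre) every cell was Eed+/+. In Eed-MADM (MADM7-GT/TG,Eed;Emx1-cre) green cells carried Eed-/-, whereas yellow ones were Eed+/- and red ones Eed+/+, within a heterozygous cortex. In cKO-Eed-MADM (MADM7-GT,Eed/TG,Eed;Emx1-cre) the labeled cells of all colors and the Emx1 lineage around them were Eed-/-. Each sample was drawn from 2 to 3 pooled cortices of embryos or newborn (P0) mice. Of control-MADM there were 5 green libraries from E12.5, and 2 from E13.5, with 3 more from E16.5 and 5 from newborns. Those of Eed-MADM numbered 8, 2, 5 and 9 over the same ages, and cKO-Eed-MADM had 4 at each age. E12.5 cells went into lysis buffer and the later ones into RNA extraction buffer, so that collection and the youngest age cannot be told apart. The sources do not tie pools to separate litters, so that p-values measure the spread between these samples.

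Origin licensing prepares chromosomes for a single round of replication. In G1, Cdc6 and Cdt1 join the origin recognition complex on DNA and load Mcm2 to Mcm7 as paired rings, which later unwind the double strand as the core of the replicative helicase. Mcm10 helps to turn the loaded helicase on, and geminin, the product of Gmnn, binds Cdt1 and blocks further loading until mitosis is over. Most of these genes are transcribed toward S phase under E2F factors, and their transcripts are high in cycling neural progenitors and low in neurons. In a bulk sample, fewer cycling cells and less RNA per cycling cell cannot be told apart.

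The promoter windows of the genes with the lowest E13.5 values in cKO-Eed-MADM relative to control-MADM are shown first, because those genes carry the main comparison below. The windows are from RefSeq (GRCm38.p6) and run from 250 bases before the annotated start to 50 bases from it on, in the direction of the gene. Capitals mark matches to an E2F motif, searched as TTTCCCGC, TTTGGCGC, TTTCGCGC and TTTGCCGC on both strands. Matches in Mcm5 and in the upstream match of Mcm6 overlap on opposite strands and form a single run of capitals. The windows lie at chr1:20820263-20820562, minus strand, for Mcm3, at chr8:75109259-75109558, plus strand, for Mcm5, at chr1:128359656-128359955, minus strand, for Mcm6, at chr5:138171834-138172133, minus strand, for Mcm7, at chr11:98907901-98908200, plus strand, for Cdc6, and at chr8:122567765-122568064, plus strand, for Cdt1.
Mcm3: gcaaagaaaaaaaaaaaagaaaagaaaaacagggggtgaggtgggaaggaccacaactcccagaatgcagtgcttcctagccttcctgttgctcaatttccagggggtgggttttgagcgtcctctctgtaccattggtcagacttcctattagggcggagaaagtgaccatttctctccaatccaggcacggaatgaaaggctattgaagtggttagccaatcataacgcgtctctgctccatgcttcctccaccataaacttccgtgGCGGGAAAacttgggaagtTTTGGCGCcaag
Mcm5: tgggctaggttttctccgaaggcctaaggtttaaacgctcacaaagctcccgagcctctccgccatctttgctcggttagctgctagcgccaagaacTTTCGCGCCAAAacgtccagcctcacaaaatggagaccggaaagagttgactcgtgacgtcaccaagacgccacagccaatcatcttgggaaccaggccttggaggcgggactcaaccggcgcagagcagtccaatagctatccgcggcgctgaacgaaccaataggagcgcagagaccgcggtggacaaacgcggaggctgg
Mcm6: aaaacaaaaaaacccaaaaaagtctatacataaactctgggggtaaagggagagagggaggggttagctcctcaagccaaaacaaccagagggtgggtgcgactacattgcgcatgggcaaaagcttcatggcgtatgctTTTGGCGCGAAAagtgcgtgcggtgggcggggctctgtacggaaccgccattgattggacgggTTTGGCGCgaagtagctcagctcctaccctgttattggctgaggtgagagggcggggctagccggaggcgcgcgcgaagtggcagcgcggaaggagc
Mcm7: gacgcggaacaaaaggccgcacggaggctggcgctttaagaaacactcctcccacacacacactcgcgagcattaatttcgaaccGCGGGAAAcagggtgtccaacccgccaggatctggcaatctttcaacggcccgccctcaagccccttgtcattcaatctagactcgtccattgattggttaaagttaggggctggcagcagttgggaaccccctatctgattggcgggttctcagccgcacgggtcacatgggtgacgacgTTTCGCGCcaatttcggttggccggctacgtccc
Cdc6: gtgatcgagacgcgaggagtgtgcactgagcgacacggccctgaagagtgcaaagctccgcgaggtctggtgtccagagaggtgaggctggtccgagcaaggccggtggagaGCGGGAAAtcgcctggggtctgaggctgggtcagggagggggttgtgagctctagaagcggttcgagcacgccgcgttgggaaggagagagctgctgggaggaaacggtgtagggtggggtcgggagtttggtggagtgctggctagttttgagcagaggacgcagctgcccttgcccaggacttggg
Cdt1: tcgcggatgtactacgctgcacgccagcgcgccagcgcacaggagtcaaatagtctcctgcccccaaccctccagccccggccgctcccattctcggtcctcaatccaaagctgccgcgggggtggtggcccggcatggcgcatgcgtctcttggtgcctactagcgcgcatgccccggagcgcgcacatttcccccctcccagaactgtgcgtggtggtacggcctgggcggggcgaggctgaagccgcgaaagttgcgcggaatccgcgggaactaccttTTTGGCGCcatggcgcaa

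RefSeq windows were at hand for 8 of the 10 genes, all but Mcm4 and Gmnn, with a second start for Mcm7. An E2F motif as spelled above stood in 6 of these 8 genes and in 742 of all 32817 windows of this length, which is 2.26%. The 6 genes were Mcm3, Mcm5, Mcm6, Mcm7, Cdc6 and Cdt1, and the windows of Mcm2 and Mcm10 held no full match. The Mcm10 window ends in TTTGGCG, the start of TTTGGCGC, so that a match across its edge would be missed. The CCAAT box, searched as CCAAT on both strands, stood in 6 of the 8 genes and in 37.4% of all windows. TTTGAA, the CHR motif of genes that peak late in the cell cycle, stood only in Mcm2 among the 8 genes and in 17.9% of all windows. These matches are descriptions of sequence and not shown to be bound.

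**Figure D1:**
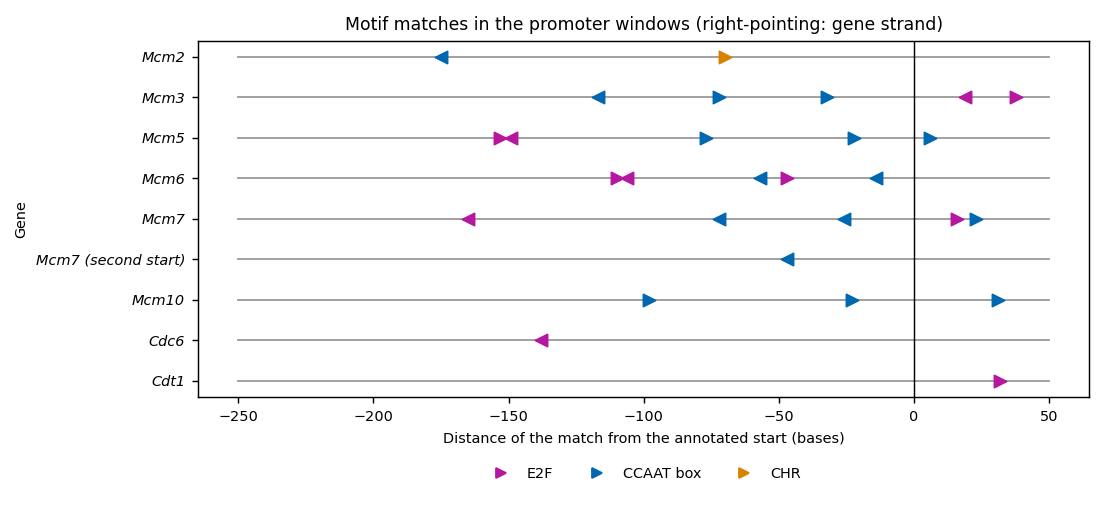
Motif matches (triangles, pointing right on the strand of the gene) against their distance in bases from the RefSeq start, for the 9 promoter windows of 8 licensing genes. E2F matches are present in Mcm3, Mcm5, Mcm6, Mcm7, Cdc6 and Cdt1, between 165 bases upstream and 38 bases downstream of the start.

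The genes lie on 8 chromosomes (GRCm38, GENCODE M21), with reads counted over all their exons. Mcm3 (chr1:20802968-20820312) and Mcm6 (chr1:128331590-128359664) share chromosome 1, and Mcm5 (chr8:75109569-75128439) and Cdt1 (chr8:122568015-122573554) share chromosome 8. Mcm7 (chr5:138164583-138172422) overlaps exons of Ap4m1, Cops6, Mir25 and Mir93 over 12.6% of its exonic bases, and reads there cannot be assigned by strand. No exon of the other 9 genes overlaps another gene. The remaining genes are Mcm10 (chr2:4989714-5012791), Mcm2 (chr6:88883474-88898780), Cdc6 (chr11:98907801-98923940), Gmnn (chr13:24751845-24761923) and Mcm4 (chr16:15623897-15637400).

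Green libraries held 865832 to 2359317 reads on genes at E12.5 and 2784557 to 7249098 at the later ages. Levels are given as CPM, the reads of a gene per 1000000 reads on genes, scaled between libraries with TMM. The lowest count of any licensing gene in a green library was 3 reads, for Mcm10 at E16.5, and 13 reads at E12.5. Eed itself was lower in every cKO-Eed-MADM library than in every control-MADM library of its age, for example at 8.81 to 16.4 CPM against 25.7 to 34.1 CPM at P0. The study also removed samples for many reads in the deleted region of Eed or for low correlation with replicates. Those limits were not applied here, so that libraries with incomplete loss of Eed may remain. Markers of radial glia and of projection neurons had reads in every group, with none of the 8 listed genes of either kind at 0 across a group. Astrocyte markers summed to at most 57.9 CPM in a green library at E13.5.

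Mcm7, Mcm5, Mcm3 and Mcm2, all subunits of the helicase ring, had the highest mean levels per length in E13.5 control-MADM. There, levels per kb of exon ran from 124 ± 27.4 CPM per kb for Mcm7 (SD, n = 2) down to 4.75 ± 0.52 CPM per kb for Mcm10. Mcm5 at 83.5 ± 28.1, Mcm3 at 80.5 ± 32.9 and Mcm2 at 66.0 ± 18.2 CPM per kb followed Mcm7 and did not differ from each other beyond their spread. Gmnn at 50.3, Cdt1 at 46.5 and Mcm6 at 45.8 CPM per kb were likewise inside each other's spread. Mcm4 stood at 32.2 ± 1.86 CPM per kb, and the loader Cdc6 stood far lower at 7.65 ± 0.471 CPM per kb. Per kb of the longest coding transcript Mcm2 moved from the fourth to the second place behind Mcm7, at 136 CPM per kb.

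**Figure D2:**
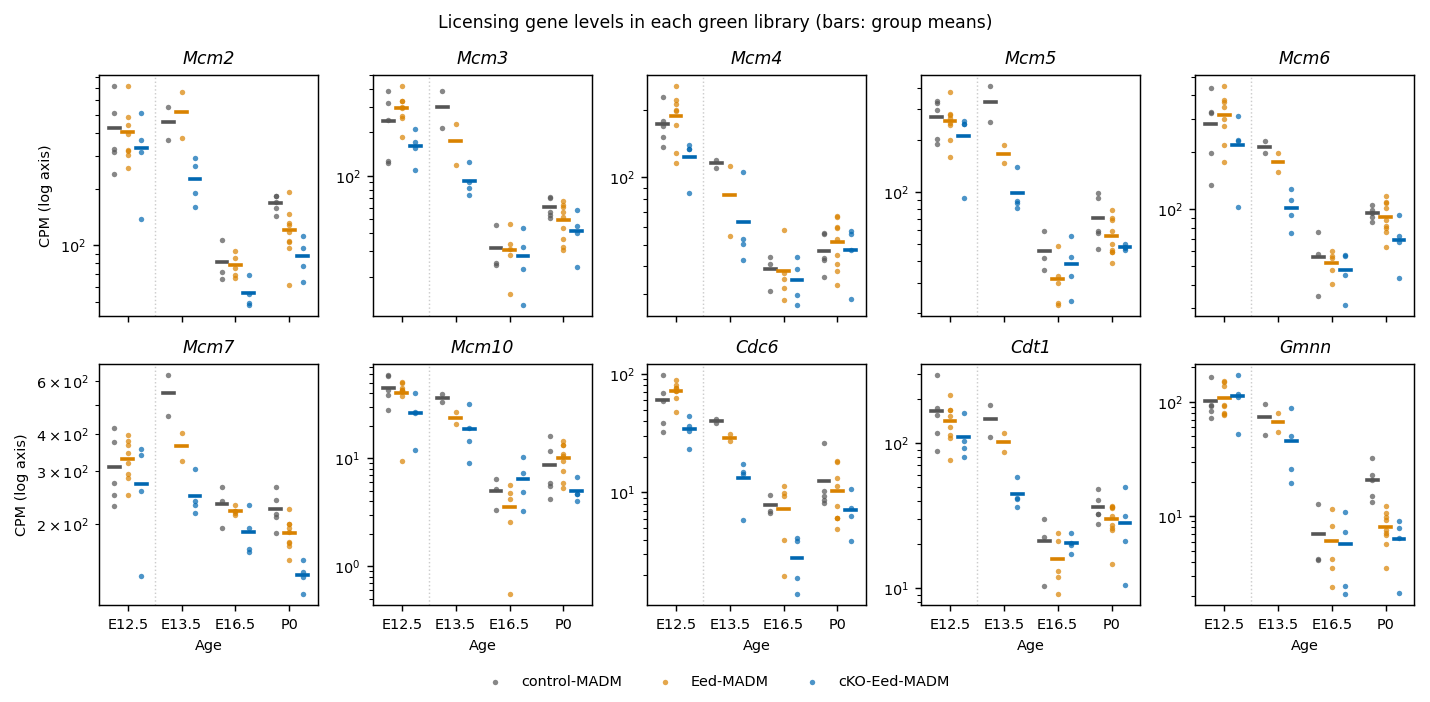
CPM on a log axis for each of the 10 licensing genes in each of the 55 green libraries (points), by age and paradigm, with group means as bars. E12.5, left of the dotted line, was collected in another buffer. All genes drop between E13.5 and E16.5, and cKO-Eed-MADM (blue) sits below control-MADM (gray) at E13.5, most clearly for Mcm3, Mcm5, Cdc6 and Cdt1.

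The strongest change in these genes was with age: all 10 were lower at E16.5 than at E13.5 in each of the 3 paradigms. Mcm5, a subunit of the helicase ring, measured 413 and 254 CPM in the E13.5 control-MADM libraries and 35.6, 41.7 and 59.8 CPM in those of E16.5. The lowest E13.5 library thus held several times the highest E16.5 library. On the log2 scale the difference was -2.92 ± 0.34 (SE), with adjusted p = 2e-07 in edgeR's quasi-likelihood test with Benjamini-Hochberg adjustment over 13926 genes, which is the test behind every adjusted p below unless another tool is named. Gmnn, the licensing inhibitor, measured 95.9 and 51.6 CPM at E13.5 and 4.13, 4.23 and 12.7 CPM at E16.5, a log2 difference of -3.44 ± 0.64 (adjusted p = 0.00024). Gmnn fell furthest of the 10 in control-MADM. Mcm7 fell least, from 633 and 462 CPM to 267, 194 and 240 CPM, a log2 difference of -1.28 ± 0.19 (adjusted p = 6.1e-06).

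All 10 genes were called lower in control-MADM, against 7.32% of all genes tested called lower. None of the 10 had groups that overlapped, where 19.6% of all genes tested lay lower without overlap. The median log2 difference was -2.69 over the 10 genes and 0.00 over all genes. In Eed-MADM all 10 were called lower (background 9.28%), with log2 differences from -0.77 for Mcm7 to -3.51 for Gmnn. In cKO-Eed-MADM all 10 were again called lower (background 7.6%), with log2 differences from -0.42 for Mcm7 to -3.04 for Gmnn. Markers of cells in G2 and M moved with them: their 8 genes summed to 461 to 469 CPM at E13.5 and 82.6 to 108 CPM at E16.5 in control-MADM, with 5 of 8 called lower. Radial glia markers summed to 1618 to 1900 CPM and then 748 to 988 CPM (5 of 8 called lower). Projection neuron markers summed to 5467 to 6271 CPM and then 9473 to 10789 CPM (5 of 8 called higher, 1 lower). The part of these cell type differences in the fall of the licensing genes was not tested.

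From E16.5 to P0 part of the set rose again. Mcm2 measured 66.2, 72.2 and 107 CPM in E16.5 control-MADM and 158, 143, 185, 170 and 184 CPM at P0, with no overlap between the ages and a log2 difference of 1.07 ± 0.25 (adjusted p = 0.0034). In control-MADM 4 genes were called higher (background 8.31%), namely Mcm2, Mcm3 (0.96 ± 0.33, adjusted p = 0.047), Mcm6 (0.80 ± 0.23, adjusted p = 0.017) and Gmnn (1.60 ± 0.54, adjusted p = 0.042). Leaving out replicate 1 or replicate 2 of E16.5 control-MADM left 1 call each, and leaving out P0 replicate 2, 5 or 6 left 2 each. Eed-MADM had 6 calls, all higher (background 12.1%): Mcm2, Mcm3, Mcm5, Mcm6, Mcm10 and Cdt1, with log2 differences from 0.65 to 1.53. In cKO-Eed-MADM Mcm2 was called higher (0.67 ± 0.24, adjusted p = 0.046) and Mcm7 lower (-0.47 ± 0.15, adjusted p = 0.021), against 9.58% of genes called higher and 8.14% lower. For each direction 1 of 10 is near the share of all genes. Mcm7 in cKO-Eed-MADM measured 162, 231, 194 and 165 CPM at E16.5 and 152, 116, 133 and 138 CPM at P0, without overlap. Those 2 calls rest on single libraries: none was left without E16.5 replicate 2 or without P0 replicate 3, and 1 was left without E16.5 replicate 1 or 3 or P0 replicate 4. Sums of cell type markers moved between these ages in control-MADM as well. G2 and M markers summed to 82.6 to 108 CPM at E16.5 and 185 to 306 CPM at P0 (3 of 8 called higher), and radial glia markers to 748 to 988 and 2620 to 6819 CPM (5 of 8 called higher). Interneuron markers summed to 12.9 to 34.8 and then 359 to 877 CPM (5 of 6 called higher), and projection neuron markers to 9473 to 10789 and then 4256 to 8886 CPM (5 of 8 called lower). Their part in the higher licensing genes was not tested.

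The P0 levels stayed below those of E13.5. In control-MADM all 10 genes were called lower at P0 than at E13.5 (background 11.4%), in Eed-MADM 9 of 10 (background 13.4%) and in cKO-Eed-MADM 7 of 10 (background 16.8%). The gene not called in Eed-MADM was Mcm4, at a log2 difference of -0.72 ± 0.28 (adjusted p = 0.052). In cKO-Eed-MADM Mcm4, Cdc6 and Cdt1 were not called, at -0.41 ± 0.27, -0.89 ± 0.49 and -0.67 ± 0.33. The call for Mcm6 there (-0.57 ± 0.22, adjusted p = 0.039) held in only 3 of 13 alternatives, with adjusted p up to 0.52, and DESeq2 called 6 of the 10 genes.

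**Figure D3:**
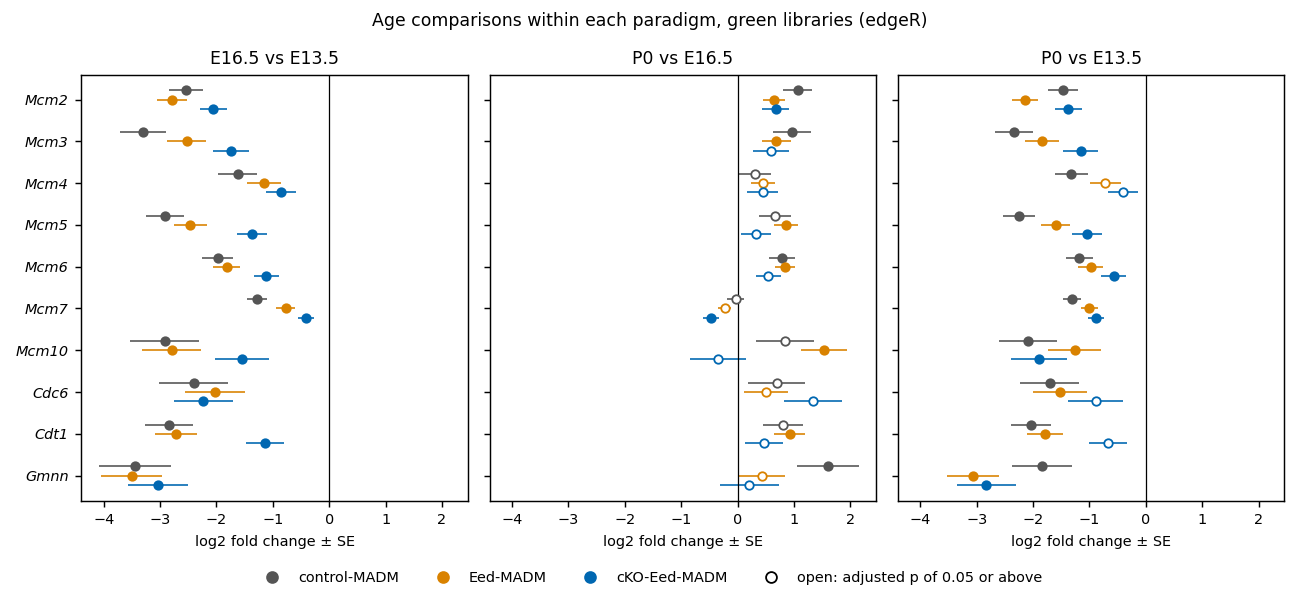
Log2 fold changes between ages (points, with SE) of the 10 genes within each paradigm, from a fit of E13.5, E16.5 and P0 green libraries. Filled points have adjusted p under 0.05. In the left panel all 30 points are filled and below 0, and the cKO-Eed-MADM point lies closest to 0 for every gene but Cdc6.

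At E13.5 the licensing genes were lower in cKO-Eed-MADM than in control-MADM, but with 2 control libraries the main test called none of them. Mcm5 measured 413 and 254 CPM in control-MADM and 89.2, 86.6, 80.9 and 139 CPM in cKO-Eed-MADM. The highest mutant library thus stood below the lowest control library, and the log2 difference was -1.78 ± 0.30 (adjusted p = 0.052). Mcm3 measured 389 and 215 CPM in control-MADM and 90.3, 73.7, 82.6 and 124 CPM in cKO-Eed-MADM, a log2 difference of -1.74 ± 0.33 (adjusted p = 0.061). The groups did not overlap, and the mutant mean was 30.7% of the control mean.

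The loaders lay in the same direction. Cdt1, which brings the helicase to the origin, measured 182 and 110 CPM in control-MADM and 41.0, 36.3, 58.1 and 41.8 CPM in cKO-Eed-MADM, a log2 difference of -1.75 ± 0.32 (adjusted p = 0.061). Cdc6 measured 41.7 and 38.3 CPM in control-MADM and 17.5, 5.80, 14.9 and 14.3 CPM in cKO-Eed-MADM, a log2 difference of -1.63 ± 0.44 (adjusted p = 0.18). For both loaders every mutant library lay below both control libraries. Gmnn was the exception in its spread: its control libraries stood at 95.9 and 51.6 CPM, and its mutant libraries at 25.7, 19.5, 87.7 and 50.1 CPM overlapped them (-0.71 ± 0.50, adjusted p = 0.71). The other helicase genes and Mcm10 had log2 differences from -0.90 for Mcm4 to -1.17 for Mcm7.

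In all, 10 of 10 log2 differences were below 0, with a median of -1.13 against 0.05 over all genes, and 9 of the 10 genes lay lower without overlap, where 8.72% of all genes tested did. No gene of the set passed an adjusted p of 0.05 in edgeR (background 0.00744% called lower), while 9 had an unadjusted p under 0.05, as had 1384 of all 13448 genes. DESeq2 called 6 of them lower (background 0.662%): Mcm3, Mcm5, Mcm6, Mcm7, Cdc6 and Cdt1, with adjusted p from 2.5e-05 for Mcm5 to 0.042 for Cdc6. The count also moved with settings of edgeR that kept both controls, to 3 with only the 2 groups compared or with the newer quasi-likelihood form, and to 4 with no filter on low counts. Without control-MADM replicate 3 the log2 differences were larger for most genes, for example -2.11 for Mcm5 and -2.12 for Mcm3. Without control-MADM replicate 1 they were smaller for most genes, at -1.36 for Mcm5, -1.22 for Mcm3 and -0.17 for Gmnn, but larger for Mcm4 and Mcm10. In either case the lone control library is assumed to vary like the libraries of the other groups. With the libraries of this age that missed the limits put back in, all 10 differences stayed below 0 and none was called. The differences were smaller for most genes, for example -1.17 for Mcm5, -0.55 for Mcm3 and -0.33 for Mcm2. Most of the added libraries were shallow, but control-MADM replicate 2 had 3648465 uniquely aligned reads. It missed the other limit, at 31.9% of its reads, and had reads on 5098 genes. Sums of cell type markers moved with these values. G2 and M markers summed to 461 to 469 CPM in control-MADM and 211 to 373 CPM in cKO-Eed-MADM, radial glia markers to 1618 to 1900 and 1180 to 1763 CPM, and projection neuron markers to 5467 to 6271 and 7070 to 8328 CPM. None of these marker genes was called at E13.5 by edgeR, and the part of such differences in the licensing genes was not tested.

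Sparse Eed-/- cells of Eed-MADM lay between these groups for most genes. Mcm5 measured 146 and 188 CPM in the green Eed-MADM libraries, below both controls, with a log2 difference of -1.01 ± 0.36 (adjusted p = 0.68). It was 1 of 4 genes that lay lower without overlap (background 15.4%). Mcm2 stood as high as in control-MADM, at 664 and 375 CPM against 549 and 369 CPM. No gene was called between Eed-MADM and control-MADM by edgeR or DESeq2 (backgrounds 0% and 0.171% called lower). An unadjusted p under 0.05 was found for 1 gene in edgeR and 2 in DESeq2, and for 824 and 992 of all 13448 genes. Between cKO-Eed-MADM and Eed-MADM all 10 differences were below 0, with a median of -0.79. Of these genes 6 lay lower without overlap (background 6.1%). An unadjusted p under 0.05 was found for 7 in edgeR and in DESeq2, and for 672 and 828 of all 13448 genes. Neither tool called any of the 10 (backgrounds 0.00744% and 0.0595% called lower). Mcm2 and Cdt1 differed most there, by -1.20 ± 0.32 and -1.21 ± 0.32 on the log2 scale (adjusted p = 0.51 for each). The comparisons with control-MADM share their 2 control libraries and are not independent.

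Red and yellow cells of E13.5 cKO-Eed-MADM, which are Eed-/- too, were compared with red and yellow control cells in a fit with color as a term. Mcm5 measured 230 (red) and 179 (yellow) CPM in control-MADM and 73.8, 65.7 (red), 65.2 and 60.6 (yellow) CPM in cKO-Eed-MADM. The 4 mutant libraries were close together and all below the controls, with a log2 difference of -1.64 ± 0.17 (adjusted p = 0.0072). Cdt1 measured 110 and 94.1 CPM in control-MADM and 29.0, 35.6, 14.0 and 28.4 CPM in cKO-Eed-MADM, a log2 difference of -1.99 ± 0.30 (adjusted p = 0.019). All 10 genes lay lower without overlap (background 12.4%) and 7 were called lower (background 0.895%): Mcm2 to Mcm7 and Cdt1. Mcm10, Cdc6 and Gmnn missed the threshold, at -1.20 ± 0.32, -1.94 ± 0.72 and -1.43 ± 0.31 (adjusted p = 0.11, 0.22 and 0.058). Same-numbered libraries of the colors may come from the same pooled cortices, so that these cells are another measure of the same design and may not be other animals. Each color had 1 control library, and the calls depended on single libraries: they numbered 0 without the red control or without cKO red replicate 2, 1 without cKO red replicate 1, 2 without the yellow control and 3 without cKO yellow replicate 2. G2 and M markers moved here too, at 427 to 574 CPM in control-MADM and 162 to 278 CPM in cKO-Eed-MADM, with 1 of 8 called lower, as were 2 of 8 radial glia genes and 1 of 5 red blood cell genes, while 3 of 8 projection neuron genes were called higher. The part of these markers in the result was not tested.

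**Figure D4:**
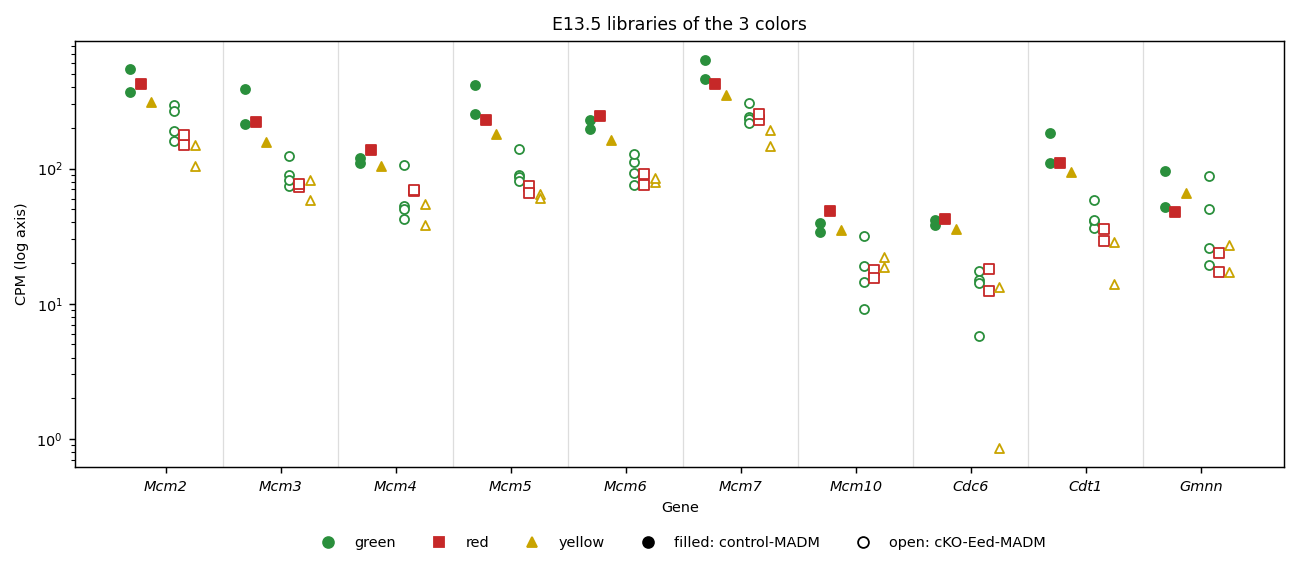
CPM on a log axis for each licensing gene in each E13.5 library of control-MADM (filled) and cKO-Eed-MADM (open), in green (circles), red (squares) and yellow (triangles) cells. Apart from Gmnn in green cells, every open symbol lies below the filled symbols of the same color.

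At E12.5 no gene of the set was called in any genotype comparison by edgeR or DESeq2. In cKO-Eed-MADM against control-MADM the background was 0% called lower by edgeR and 0.0112% by DESeq2, and 9 of 10 log2 differences were below 0, with a median of -0.43. Cdc6 differed most, at 98.8, 38.4, 32.4, 69.3 and 59.5 CPM in control-MADM and 36.4, 23.1, 33.0 and 43.8 CPM in cKO-Eed-MADM. The groups overlapped, and the log2 difference was -0.80 ± 0.31 (adjusted p = 0.56). Cdc6 was the single gene of the set with an unadjusted p under 0.05 in edgeR, where DESeq2 had 2. Among all genes, 1292 of 18100 had one in edgeR and 981 of 17836 in DESeq2. Against Eed-MADM, whose 8 libraries ran from 48.1 through a median of 74.1 to 88.7 CPM, Cdc6 in cKO-Eed-MADM did not overlap (background 0.133%) at -1.09 ± 0.29 (adjusted p = 0.23). In that comparison 3 genes had an unadjusted p under 0.05 in either tool, as had 1307 of all 18100 genes in edgeR and 974 of 17836 in DESeq2. The shares of all genes called lower were 0% in edgeR and 0.00561% in DESeq2. Between Eed-MADM and control-MADM 4 of 10 differences were below 0 (backgrounds 0% and 0% called lower). No gene of the set had an unadjusted p under 0.05 in either tool, where 689 of all 18100 genes had one in edgeR and 501 of 17836 in DESeq2. The median biological coefficient of variation was 0.63 at E12.5 and 0.365 at E13.5. The E12.5 value covers genes with a mean count above 1 in shallower libraries, and the E13.5 value genes with a mean count above 10. The 2 values therefore do not compare the spread of replicates like for like.

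At E16.5 the 3 paradigms were close to each other. Mcm5 measured 35.6, 41.7 and 59.8 CPM in control-MADM, 29.6, 49.0, 22.1, 22.9 and 32.8 CPM in Eed-MADM and 32.7, 55.5, 42.3 and 23.6 CPM in cKO-Eed-MADM. All 3 groups overlapped, and cKO-Eed-MADM differed from control-MADM by -0.22 ± 0.32 (adjusted p = 0.78). Cdc6 was lower in the 4 mutant libraries, at 1.90, 1.38, 4.12 and 3.86 CPM, than in the 3 controls, at 9.59, 6.77 and 7.01 CPM, but with 8 to 21 reads per mutant library its difference of -1.44 ± 0.65 was not called (adjusted p = 0.22). It was the single gene of 10 that lay lower without overlap (background 9.32%). No licensing gene was called by edgeR or DESeq2 between cKO-Eed-MADM and control-MADM (backgrounds 2.42% and 3.12% called lower), and 2 had an unadjusted p under 0.05 in either tool, as had 2678 of all 13359 genes in edgeR. The same counts held between cKO-Eed-MADM and Eed-MADM (backgrounds 2.58% and 3.77%), where 2520 of the 13359 genes had an unadjusted p under 0.05 in edgeR. For both comparisons 2 of 10 is near the share of all genes. Between Eed-MADM and control-MADM none was called in either tool (backgrounds 0.015% and 0.18% called lower). None had an unadjusted p under 0.05, where 1405 of all 13359 genes had one in edgeR and 1546 of 13355 in DESeq2. Marker sums parted between control-MADM and cKO-Eed-MADM at E16.5. Interneuron markers summed to 12.9 to 34.8 CPM in control-MADM and 252 to 504 CPM in cKO-Eed-MADM (5 of 6 called higher), and astrocyte markers to 58.1 to 78.4 and 157 to 407 CPM (4 of 5 called higher). Projection neuron markers summed to 9473 to 10789 and 7462 to 8666 CPM (3 of 8 called lower, 1 higher), and intermediate progenitor markers to 801 to 1028 and 624 to 689 CPM (2 of 5 called lower). G2 and M markers summed to 82.6 to 108 and 55.7 to 76.6 CPM, with none of 7 tested called by edgeR. The part of these markers in the values of the licensing genes was not tested.

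In red and yellow cells of E16.5 Mcm3 was the single call of 10 (background 2.18% called lower), at 16.9 and 9.12 CPM in the red cKO-Eed-MADM libraries. The controls stood at 54.2 and 23.9 CPM (red) and 29.8 CPM (yellow), above both mutant libraries, and 5 of 10 genes lay lower without overlap (background 17.3%). The log2 difference was -1.61 ± 0.42 (adjusted p = 0.03), and no gene was called without control red replicate 1 or without cKO red replicate 2, where leaving out control red replicate 2 gave 2 calls. In P0 red and yellow cells edgeR called none (background 0% lower, 0.00715% higher) and none had an unadjusted p under 0.05, as 930 of all 13985 genes had. Log2 differences were below 0 for 4 genes and above 0 for 6, with a median of 0.21. Mcm2 stood at 101 and 116 (red) and 50.3 and 55.7 (yellow) CPM in control-MADM, and at 76.8 and 83.5 (red) and 108 (yellow) CPM in cKO-Eed-MADM. Replicates varied widely in this fit, with a median biological coefficient of variation of 0.76. There the control yellow replicate 2 and the cKO red replicate 1 had the fewest genes with reads, and Mcm4 stood at 0.468 and 5.47 CPM in them. Without these 2 libraries, an alternative added after the data were seen, none was called either.

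The change of the genotype difference with age was tested directly. For Mcm5 the log2 difference between cKO-Eed-MADM and control-MADM was higher at E16.5 than at E13.5 by 1.55 ± 0.42 (adjusted p = 0.026), and for Mcm7 by 0.87 ± 0.24 (adjusted p = 0.026). These were 2 of 10 genes called (background 2.36% called higher), while all 10 values were above 0 with a median of 0.86. Mcm3 and Cdt1 had larger but less precise values, at 1.57 ± 0.50 and 1.70 ± 0.54 (adjusted p = 0.067 and 0.061). Cell type marker sums moved with genotype at both ages, as given above, and their part in these values was not tested. Between P0 and E13.5 Mcm5 alone was called, at 1.21 ± 0.40 (adjusted p = 0.045, background 4.24% called higher). No gene was called between E13.5 and the later ages for Eed-MADM against control-MADM by either tool (backgrounds 0.201% at E16.5 and 0.89% at P0, either direction, in edgeR). None had an unadjusted p under 0.05 in edgeR, where 1210 of all 13926 genes had one at E16.5 and 2080 at P0. DESeq2 had 1, at E16.5, where 1382 of all 13924 genes had one. The calls for cKO-Eed-MADM rest on single libraries. Without E13.5 control-MADM replicate 1, E16.5 control-MADM replicate 2 or E16.5 cKO-Eed-MADM replicate 2, neither Mcm5 nor Mcm7 was called between E16.5 and E13.5. Without E16.5 control-MADM replicate 1 there was 1 call, and without replicate 3 of E13.5 or of E16.5 control-MADM there were 4. The P0 call for Mcm5 was lost without any one of E13.5 control-MADM replicate 1, E13.5 cKO-Eed-MADM replicate 1, 2 or 3, P0 control-MADM replicate 1, 4 or 6, or P0 cKO-Eed-MADM replicate 1 or 3. It became 2 calls without E13.5 cKO-Eed-MADM replicate 5 or P0 cKO-Eed-MADM replicate 2, and 3 without E13.5 control-MADM replicate 3.

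At P0 helicase subunits Mcm2 and Mcm7 and the inhibitor Gmnn were lower in green cells of cKO-Eed-MADM than of control-MADM, which red and yellow cells did not share as a set (above). Mcm2 measured 158, 143, 185, 170 and 184 CPM in control-MADM and 77.4, 63.8, 113 and 97.2 CPM in cKO-Eed-MADM. The groups did not overlap, and the log2 difference was -0.95 ± 0.22 (adjusted p = 0.0029). Mcm7 measured 267, 186, 217, 211 and 241 CPM in control-MADM and 152, 116, 133 and 138 CPM in cKO-Eed-MADM, a log2 difference of -0.75 ± 0.14 (adjusted p = 0.00025). Gmnn measured 13.2, 23.0, 15.0, 32.4 and 20.8 CPM in control-MADM and 9.04, 2.12, 6.41 and 7.92 CPM in cKO-Eed-MADM, a log2 difference of -1.71 ± 0.40 (adjusted p = 0.0028). For all 3 genes every mutant library lay below every control library.

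These 3 of 10 genes were called lower, and none higher, where 10% of all genes tested were called lower, and the 3 did not overlap, where 6.81% of all genes did so. All 3 stayed called under each of 17 alternatives. Mcm4 did not differ, at 43.8, 56.5, 56.0, 35.7 and 42.9 CPM in control-MADM and 55.7, 28.6, 57.5 and 47.4 CPM in cKO-Eed-MADM (0.00 ± 0.22). The loaders overlapped between the groups, with Cdt1 at -0.37 ± 0.32 and Cdc6 at -0.81 ± 0.45. Mcm3, Mcm5 and Mcm6 lay between -0.48 and -0.58 with adjusted p from 0.064 to 0.11. Marker sums differed at this age: G2 and M markers summed to 185 to 306 CPM in control-MADM and 59.2 to 99.7 CPM in cKO-Eed-MADM (5 of 8 called lower), astrocyte markers to 379 to 892 and 2076 to 3909 CPM (5 of 5 called higher) and projection neuron markers to 4256 to 8886 and 2021 to 5114 CPM (5 of 8 called lower). Intermediate progenitor markers were split, with 2 of 5 called higher and 2 lower, and summed to 374 to 688 CPM in control-MADM and 722 to 1269 CPM in cKO-Eed-MADM. Interneuron markers summed to 359 to 877 and 160 to 243 CPM (4 of 6 called lower). Microglia markers summed to 5.99 to 17.9 CPM and 105 to 229 CPM (4 of 4 tested called higher) and meningeal markers to 8.32 to 14.4 and 96.2 to 192 CPM (4 of 4 tested called higher). Their part in the lower licensing genes was not tested.

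Sparse green mutant cells also had lower Gmnn than green control cells. Low values were not limited to Eed-/- cells, however. At P0 the red Eed+/+ libraries stood at 8.49 and 8.82 CPM in control-MADM and at 10.4 and 14.2 CPM in Eed-MADM. Yellow control-MADM libraries stood at 0 and 4.34 CPM. The difference between colors was not tested. In the 9 green Eed-MADM libraries of P0 Gmnn ran from 3.51 through a median of 7.60 to 12.3 CPM, below all 5 green control libraries, with a log2 difference of -1.36 ± 0.31 (adjusted p = 0.022). It was the single call of 10 (background 0.233% called lower, 0.523% lower without overlap), and it was lost without control-MADM replicate 5, which had the highest Gmnn (adjusted p = 0.09), and with the replicate number as a block (adjusted p = 0.14). It held in 20 of 22 alternatives. G2 and M markers of these Eed-MADM libraries summed to 104 to 306 CPM, across the control range, and none was called. Between cKO-Eed-MADM and Eed-MADM, Gmnn overlapped (-0.34 ± 0.36, adjusted p = 0.55). There Mcm7 was the single call (background 8.26% called lower): its 9 Eed-MADM libraries ran from 152 through a median of 188 to 225 CPM, its lowest library being just above the highest of cKO-Eed-MADM (152 CPM), and the difference was -0.48 ± 0.12 (adjusted p = 0.0069). Without overlap lay 1 gene of 10, Mcm7 (background 4.19%). A single call of 10 is near the share of all genes called lower in this comparison. Calls numbered 3 without Eed-MADM replicate 1 and 2 without cKO-Eed-MADM replicate 3.

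**Figure D5:**
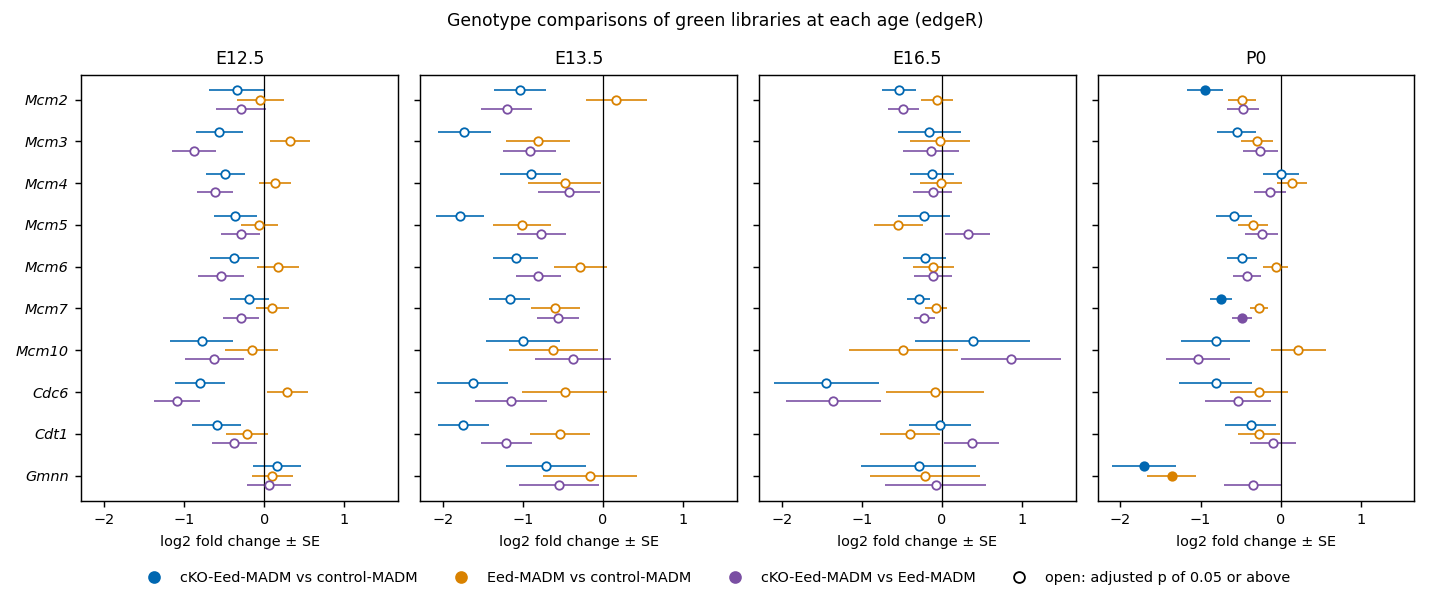
Log2 fold changes between paradigms (points, with SE) of the 10 genes in green libraries, one panel per age. Filled points have adjusted p under 0.05. At E13.5 all 10 blue points lie left of 0 but are open, and at P0 Mcm2, Mcm7 and Gmnn are filled.

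Other genes of the replication pathway were read from lists, whose P0 counts of genes lower in cKO-Eed-MADM stand against 10% of all genes tested. The 6 genes of the origin recognition complex, on which the helicase is loaded, had no call in any genotype comparison, and summed to 187 to 238 CPM in E13.5 control-MADM and 213 to 308 CPM in cKO-Eed-MADM. Their median log2 difference there was 0.34. In contrast to the 10 of 10 licensing genes, 0 of 6 origin recognition genes were called between E16.5 and E13.5 in control-MADM and 1 of 6 in Eed-MADM. Of all genes tested, 7.32% and 9.28% were called lower between these ages in the same paradigms. The difference between the lists was not tested. The 15 genes that turn the helicase on had a median of -0.65 between E13.5 cKO-Eed-MADM and control-MADM with no call, and 3 were called lower at P0, led by Ticrr (-1.44, adjusted p = 0.01) and Cdc45 (-1.32, adjusted p = 0.012), both needed to start unwinding. The other, named after its value was seen, was Timeless (-0.79, adjusted p = 0.017). The 25 genes of polymerases, the sliding clamp and their partners had a median of -0.59 at E13.5 with no call, and 10 were called lower at P0, led by Chaf1b (-1.07, adjusted p = 0.0016), a chromatin assembly factor, and Rfc4 (-1.03, adjusted p = 0.0053), a subunit of the clamp loader.

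Among the 10 genes of Cdt1 and geminin turnover and relatives, 9 were tested at P0 between cKO-Eed-MADM and control-MADM, 2 being called lower and 1 higher. Fbxo5, which holds back the ubiquitin ligase that degrades geminin, was at -1.83 (adjusted p = 9.6e-05), and Fzr1, an activator of that ligase, at -0.61 (adjusted p = 0.0061). The gene called higher, named here after its value was seen, was the geminin relative Mcidas at 1.81 (adjusted p = 0.034). Of 10 E2F and DP factors 1 was called lower at P0, a share equal to that of all genes (10%), the repressor E2f7 (-1.77, adjusted p = 0.0038). In red and yellow cells of E16.5 the activator E2f1 was called lower (-1.50, adjusted p = 0.01). Of the 4 other MCM genes Mcmbp, which binds MCM subunits, was called lower at P0 (-0.65, adjusted p = 0.0051).

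Over the 55 green libraries the 10 genes varied together. As a description, with age, paradigm and collection shared by the points, Pearson's r of each gene with the mean of the others' standardized log2 CPM ran from 0.75 for Mcm7 and 0.88 for Mcm10 to 0.97 for Mcm5. The 8 other genes most like the mean of the set were Rrm2 (r = 0.96), Zfp367, Lig1, Uhrf1, Tk1, Dtl, Dut and Pclaf (r = 0.93). Rrm2, Tk1 and Dut serve nucleotide supply, Lig1 joins DNA strands, and Dtl directs the degradation of Cdt1. On deviations from the mean of each age and paradigm, where group differences are removed, r of each gene with the others ran from 0.30 for Mcm10 to 0.81 for Mcm6. The 8 other genes most alike on that measure were Rrm2 (r = 0.72), Tk1 (r = 0.71), Nmral1, Paics, Ss18, Phgdh, Rfc2 and Pkm (r = 0.64).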

How the data were processed

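Bulk libraries were made by the authors with Smart-Seq2 from sorted cells. The deposited values are raw read counts per gene, which the authors obtained with STAR on mouse GRCm38/mm10 (processing notes, no versions given). The unstranded count column was used here. Reads in no gene or in several made up 13.4 to 40.1% of uniquely aligned reads and were left out of library sizes. Of 53379 genes, 53274 matched GENCODE M21. Of 116 libraries, 13 green libraries missed the limits of 1000000 uniquely aligned reads and 60%, and 37 of 48 red and yellow libraries met them.

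Genes with a mean count above 1 at E12.5 and above 10 otherwise were tested with edgeR 4.0.16 (R 4.3.3, TMM, robust quasi-likelihood) over all 3 paradigms of an age. E13.5, E16.5 and P0 were fitted together for ages and their interactions, and red and yellow libraries with color as a covariate. Adjusted p is Benjamini-Hochberg over all genes tested, two-sided, called under 0.05. SE is the log2 fold change divided by the root of F. DESeq2 1.42.0, other size factors, filters, sample sets, a replicate block and leaving out each replicate were alternatives. The fits were tested on simulated counts. The 10 genes and the lists were chosen with earlier results of these data known. The named genes were all 10, the genes of the fixed lists with the lowest adjusted p, and the 8 genes most like the set.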

Additional observations from a re-analysis of the deposited data

Results flagged for a closer look

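Among 90 groups of 4 to 10 green libraries (a gene in an age and paradigm), 7 held a library far from the rest by Dixon's criterion, which chance gives in about 1 of 20 groups. In control-MADM, Cdc6 stood at 26.0 CPM in P0 replicate 2 and at 8.15 to 10.2 CPM in the others, and Gmnn at 166 CPM in E12.5 replicate 4 and at 71.9 to 94.4 CPM in the others. In E12.5 Eed-MADM, Mcm10 stood at 9.45 CPM in replicate 9, below the other libraries. In E12.5 cKO-Eed-MADM replicate 3, Mcm4 stood at 85.2 CPM and Mcm5 at 91.9 CPM, where Mcm5 was at 247 to 259 CPM in the others. In E13.5 cKO-Eed-MADM replicate 5, Mcm4 stood at 106 CPM against 42.7 to 52.8 CPM and Mcm5 at 139 CPM against 80.9 to 89.2 CPM.

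The log2 difference between cKO-Eed-MADM and control-MADM changed with age by a test of the change itself for Mcm5 between E13.5 and E16.5 (1.55), for Mcm7 between the same ages (0.87) and for Mcm5 between E13.5 and P0 (1.21).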

How the results depend on the processing

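Counts of the 10 genes called moved as follows. In E13.5 cKO-Eed-MADM against control-MADM the count of 0 became 6 with DESeq2, 4 with no filter, and 3 with only the 2 groups compared or the newer quasi-likelihood form. At P0, cKO-Eed-MADM against Eed-MADM went from 1 to 2 with those last 2 settings. With all green libraries, P0 against E16.5 went to 0 in each paradigm, P0 against E13.5 to 4 in control-MADM, to 1 in Eed-MADM and to 3 for cKO-Eed-MADM, E16.5 against E13.5 in cKO-Eed-MADM to 4, and both interactions to 0. P0 against E16.5 in cKO-Eed-MADM went from 2 to 4 with DESeq2 and to 1 with its size factors or no filter. The interactions of cKO-Eed-MADM and control-MADM went to 4 (E16.5) and 2 (P0) with DESeq2, and the P0 one to 3 with no filter, where that of cKO-Eed-MADM and Eed-MADM (E16.5) went from 0 to 1. With all red and yellow libraries, E13.5 went from 7 to 0 and E16.5 from 1 to 2. The cause was not tested.

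With the replicate block, the count went to 0 for P0 Eed-MADM against control-MADM, to 6 for cKO-Eed-MADM between E16.5 and E13.5, and to 3 for red and yellow E13.5. Same-numbered samples deviated together (r over 0.1) in 10 of 36 pairs, so that the numbers were not taken to pair the samples.

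Leaving out each replicate gave 0 to 4 calls in E13.5 cKO-Eed-MADM against control-MADM, and at P0 3 to 4 for that comparison, 0 to 1 for Eed-MADM against control-MADM and 1 to 3 for cKO-Eed-MADM against Eed-MADM. For E16.5 against E13.5, P0 against E16.5 and P0 against E13.5 it gave 9 to 10, 1 to 4 and 8 to 10 in control-MADM, 8 to 10, 4 to 6 and 8 to 8 in Eed-MADM. It gave 7 to 10, 0 to 3 and 6 to 7 in cKO-Eed-MADM. The interactions gave 0 to 4 (E16.5) and 0 to 3 (P0), and red and yellow cells 0 to 9 (E13.5) and 0 to 2 (E16.5). Of 1123 alternative values for called genes and E13.5 genes, 926 kept direction and side of the threshold, 177 lost the call, 20 gained one and 0 reversed. Of the other 3857 alternative values, for genes not called, 197 had the opposite sign and 39 were called. E13.5 had 2 control libraries, and E12.5 libraries were the shallowest, which limits both ages.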

Other observations

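In E13.5 Eed-MADM the colors differ in genotype within the same tissue, with red Eed+/+, yellow Eed+/- and green Eed-/-. By the paper, green cells also carry only paternal and red cells only maternal copies of the MADM chromosome. Eed genotype and parental origin therefore cannot be told apart between red and green cells. Mcm5 stood at 370 and 300 CPM in red, 124 and 113 CPM in yellow and 146 and 188 CPM in green libraries. Cdt1 stood at 166 and 141 CPM in red, 39.6 and 92.2 CPM in yellow and 86.9 and 117 CPM in green libraries. Mcm5 was thus lowest in yellow, the heterozygous cells, in both libraries. In control-MADM, where all colors are Eed+/+, Mcm5 stood at 230 CPM in the red and 179 CPM in the yellow library. No test was run on these values.

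The 6 genes that DESeq2 called lower at E13.5, Mcm3, Mcm5, Mcm6, Mcm7, Cdc6 and Cdt1, are also the 6 of 8 genes with a promoter window that hold an E2F motif. This was noticed after the values were seen and was not tested, and Mcm4 and Gmnn had no window. The Mcm10 window ends within a possible match, as given above, so that its lack of a motif depends on the window's edge.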
